A study of Brassica napus with 12 samples.

Results

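The regions described here carried H3K4me3 in seedlings of the *Brassica napus* hybrid HZ62, had no H3K4me3 peak in its flower buds, and lay under H3K27me3 in those flower buds. Overlapping peaks (1 bp or more) of the 6 libraries of a mark were joined into merged regions. A merged H3K4me3 region was a member if it had a peak of each seedling library and none of either flower bud library, and if it overlapped a merged H3K27me3 region with a peak in both flower bud libraries. Of 51928 merged H3K4me3 regions, 1083 were members (2.09%). The members were thus chosen by the seedling and flower bud H3K4me3 calls and the flower bud H3K27me3 calls, which are given as descriptions with no test. The seedling and silique H3K27me3 calls and the silique H3K4me3 calls took no part in that choice.

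Peaks came from ChIP-seq, which sequences the DNA that an antibody to the histone mark pulls down, in 3 tissues of wild-type HZ62, each with 2 libraries per mark. Seedlings were 2 weeks old and are called leaf in the titles, flower buds were shorter than 2 mm, and siliques, the seed pods of the Brassica family, were 3 to 5 cm long. All plants grew with 16 h of light at 22 °C and 8 h of dark at 18 °C. HZ62 is a hybrid of oilseed rape, which carries an A and a C subgenome, and its parents are not analysed here. The labels do not state whether the libraries of a tissue came from separate plants, so the spread between them may be technical.

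H3K4me3 is laid down by Trithorax-type methyltransferases around the starts of transcribed genes. H3K27me3 is laid down by Polycomb repressive complex 2, keeps developmental genes silent in plants, and is rewritten when tissues form: genes of the floral programme lose it and genes of the vegetative programme can gain it. Plant loci that carry both marks in the same tissue are known, and in bulk tissue such loci can hold both marks on 1 nucleosome or each mark in different cells. These cases cannot be told apart here, nor can fewer cells with a mark be told apart from less of the mark per cell.

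Depth was uneven for H3K27me3. Its seedling libraries held 3647059 and 3479885 fragments, its flower bud libraries 11513204 and 10929797, and its silique libraries 7441109 and 2654588. The 6 H3K4me3 libraries were closer in depth, with 8609548 to 14339594 fragments. Seedling libraries carry the lowest library numbers, 53 to 66, and fragment sizes of 226 to 246 bp, against 248 to 332 bp in the other tissues, so tissue and library series cannot be told apart. A missing peak says only that none was called at that depth. Positions are 1-based on the numbered sequences of the files, whose genome build is not given in the sources used here. No annotation of that build was used, so regions are named by position and not by gene.

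H3K4me3 regions called in seedling or flower bud but not in the other tissue lay under H3K27me3 in a larger share than H3K4me3 regions in general, whichever tissue lacked them. Of the 4839 seedling regions that flower bud lacked by this rule (9.32% of all merged H3K4me3 regions), 1083, or 22.4%, were members. Over all merged H3K4me3 regions, 6.63% lay under flower bud H3K27me3. Over the 39775 regions with H3K4me3 in all 4 seedling and flower bud libraries the share was 2.67%. Of the 1392 regions with H3K4me3 in both flower bud and neither seedling library, 300 (21.6%) lay under flower bud H3K27me3, a share close to the 22.4% above, and 291 (20.9%) under seedling H3K27me3, against 3.80% of all merged H3K4me3 regions. These shares describe the calls that define the members.

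Among seedling peaks missing from flower bud, the share under flower bud H3K27me3 was flat at low folds and higher for strong peaks. Fold enrichment is the authors' own value for each peak, the pileup at the summit over the local control, and the lower of the 2 seedling values is used here. Among regions absent from flower bud, 132 of 628 with a fold under 5 were members (21.0%), 379 of 1955 with a fold of 5 to 7.5 (19.4%), 210 of 1024 with a fold of 7.5 to 10 (20.5%), and 209 of 828 with a fold of 10 to 15 (25.2%). At a fold of 15 to 20 it was 100 of 274 (36.5%, 95% Wilson interval 31.0 to 42.3%), and at a fold of 30 or more 13 of 23 (56.5%, 36.8 to 74.4%). Regions with H3K4me3 in both tissues went the opposite way: 6.38% lay under flower bud H3K27me3 at a fold of 5 to 7.5, 2.82% at 10 to 15 and 1.64% at 30 or more. The intervals cover counting error only, and regions of 1 library are not independent of each other.

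**Figure D1:**
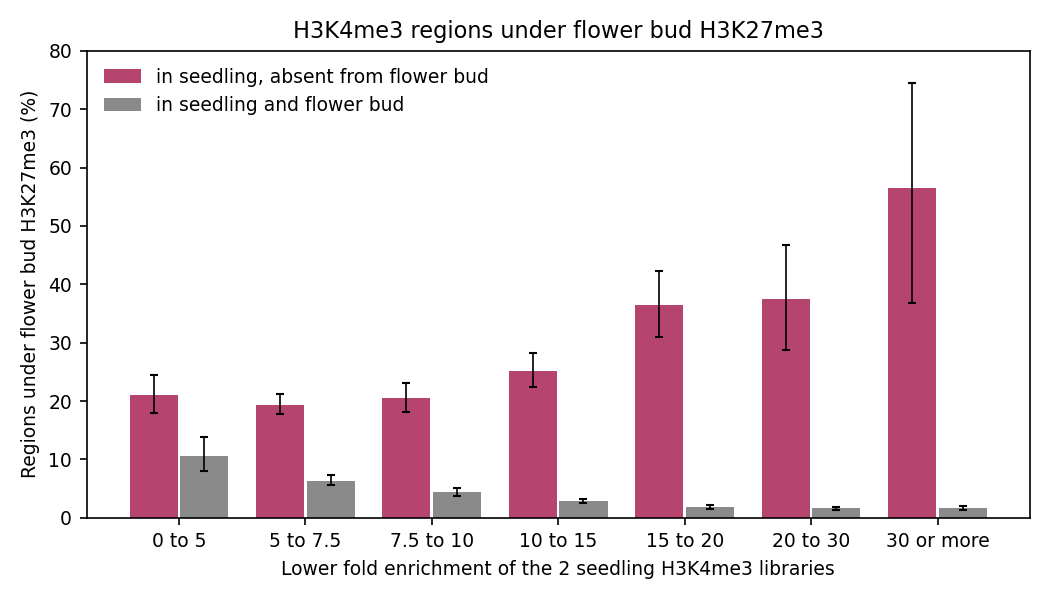
Share of H3K4me3 regions under flower bud H3K27me3 (y axis, percent) by the lower fold enrichment of the seedling H3K4me3 libraries (x axis), for regions absent from flower bud and regions in both tissues, with 95% Wilson intervals. The share is 56.5% among the 23 strongest regions absent from flower bud and 1.64% among regions of the same fold present in both tissues.

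Most members were weak to moderate H3K4me3 peaks. Their fold of seedling replicate 1 had a lowest value of 3.40, a median of 8.53 and a highest value of 51.3, and in seedling replicate 2 these were 3.13, 8.78 and 57.0. The median over all peaks of the 2 lists was 15.9 and 16.1, so that 18.0% and 19.9% of each list lay below the members' median. The 3756 other seedling regions that flower bud lacked were weaker still, with medians of 7.72 and 7.92. Members had a median width of 648 bp, against 552 bp for those other regions and 932 bp for regions of both tissues. The folds of the 2 seedling replicates ranked the members alike (Spearman rho = 0.875 across 1083 regions of the same 2 libraries).

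At the edge of the rule, the weakest member peaks had a −log10 q of 5.17 and 5.19 in the 2 seedling libraries, just above the authors' threshold of 5, while the median over members of the lower value was 21.2. Outside it, 340 regions met every other condition but had a peak in only 1 seedling library, with a median −log10 q of 10.9. A further 121 had a peak in 1 of the flower bud H3K4me3 libraries, with a median −log10 q of 11.6 there and a lowest value of 5.40. Another 121 seedling regions that flower bud lacked had an H3K27me3 peak of 1 flower bud library over them, at a median −log10 q of 10.7, and stayed outside because no merged H3K27me3 region there had both.

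**Figure D2:**
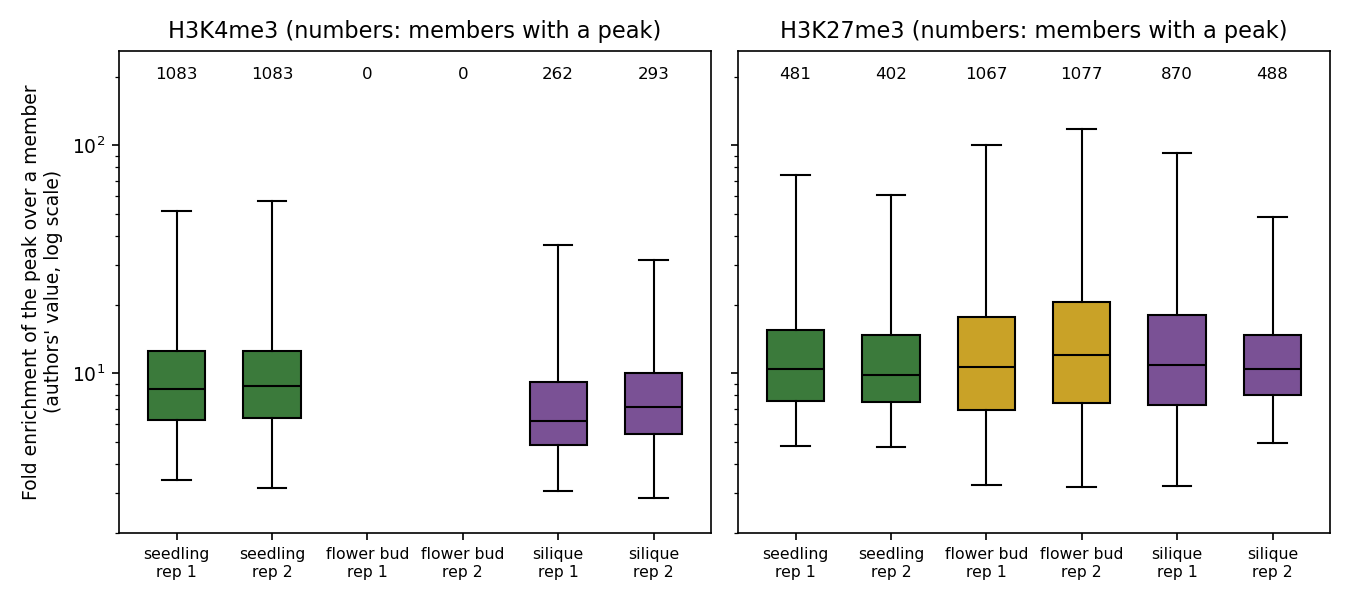
Fold enrichment of the peaks over members (y axis, log scale) in each library of H3K4me3 and H3K27me3 (x axis). Boxes span the quartiles with the median as a line, whiskers reach the lowest and highest member, and the number above each is the count of members with a peak, which is 0 in both flower bud H3K4me3 libraries by the rule.

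In flower bud the H3K27me3 covered at least 50% of the seedling H3K4me3 region at most members. The rule picked members by an overlap of the 2, which bears on every share given here, and no other set was measured. The H3K4me3 region was a median of 51.2% as wide as the H3K27me3 region, which limits how far out its centre can lie. Of the 1083 members, 682 (63.0%) were wholly inside the H3K27me3 region, and 1042 had at least 50% of their width in it. In 1063 members the peaks of both flower bud libraries touched the H3K4me3 region itself, in 18 those of 1 library did, and in 2 neither did, the overlap there being with the merged region alone. The centre of the H3K4me3 region fell in the middle 20% of the H3K27me3 region in 348 members (32.1%), and in the outermost 20% at either end in 124 and 122. Flower bud peaks covered the base of the H3K4me3 summit of seedling replicate 1 in 1010 of the 1067 members with a peak in flower bud replicate 1 (94.7%) and in 1030 of the 1077 with a peak in replicate 2 (95.6%).

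The flower bud H3K27me3 over members was of ordinary width, and its median fold was above that of all flower bud peaks. The 1072 H3K27me3 regions over members had a median width of 1366 bp, against 1382 bp for all 22485 H3K27me3 regions of both flower bud libraries, and 73 of them were 5 kb or wider. The fold over members had a lowest value of 3.25, a median of 10.7 and a highest value of 100.2 in flower bud replicate 1, where the median of the whole list was 8.32. In replicate 2 these were 3.18, 12 and 118, with a list median of 8.91. Over the other 2359 H3K4me3 regions under flower bud H3K27me3 the medians were 9.94 and 11.4, also above those of the lists. The rule required peaks of both flower bud libraries, and the highest fold over a region was taken. The lists hold every peak, so the medians are not of like sets. Across members the lower flower bud H3K27me3 fold showed almost no relation with the lower seedling H3K4me3 fold (Spearman rho = 0.0583, 1063 regions), and rose with the width of the H3K27me3 region (rho = 0.688). Few of these H3K27me3 regions, 7 of 1072 (0.653%), also overlapped an H3K4me3 region of both flower bud libraries, against 1437 of all 22485 (6.39%). H3K4me3 of 1 flower bud library was not counted. The rule removed flower bud H3K4me3 at the member itself, so the first count concerns the rest of the H3K27me3 region and the second whole regions. Members were a median of 51.2% as wide as the H3K27me3 region, so part of this gap comes from the rule.

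The members with the strongest seedling H3K4me3 were sites where H3K4me3 was called again in silique. The strongest lay on sequence 14 from 2071910 to 2073647, with H3K4me3 folds of 50.4 and 57.0 in seedling, no peak in flower bud, and 20.9 and 22.8 in silique. Its H3K27me3 folds were 9.44 and 12.2 in flower bud and 11.2 in silique replicate 1, with no peak in either seedling library, and the H3K27me3 region covered 43.8% of it. The next, on sequence 3 from 15007506 to 15008782, had H3K4me3 folds of 48.5 and 46.9 in seedling and 18.7 and 24.3 in silique, and was wholly under an H3K27me3 region with folds of 22.7 and 37.4 in flower bud. On sequence 1 from 29913640 to 29914758 the H3K4me3 folds were 51.3 and 43.6 in seedling and 5.83 and 9.83 in silique, and the H3K27me3 folds 13.9 and 23.8 in flower bud beside 15.7 and 6.29 in silique.

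The fourth of these, on sequence 14 from 3102804 to 3104621, had H3K4me3 folds of 40 and 43.4 in seedling and 6.75 and 7.61 in silique over weak flower bud H3K27me3 of 6.38 and 6.53. The fifth, on sequence 10 from 2030026 to 2031581, differed from the other 4 in carrying H3K27me3 in seedling too. Its H3K27me3 folds were 19.9 and 21.9 in seedling, 39.8 and 52.5 in flower bud, then 30 and 16.6 in silique, and its H3K4me3 folds were 40 and 39.8 in seedling and 16.8 and 29.1 in silique. All 5 had H3K4me3 peaks in both silique libraries.

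The 5 members with the strongest flower bud H3K27me3 were H3K4me3 regions of 302 to 623 bp, inside H3K27me3 regions called in every library. Their seedling H3K4me3 folds lay on both sides of the members' medians of 8.53 and 8.78. That these folds were below those of the 5 members described before follows from how those were picked. The member with the strongest flower bud H3K27me3, on sequence 2 from 4668274 to 4668595, was 322 bp wide in an H3K27me3 region of 2193 bp. Its H3K27me3 folds were 59.2 and 44.8 in seedling, 100.2 and 118 in flower bud beside 92.3 and 48.4 in silique, and its H3K4me3 folds in seedling were 7.47 and 7.14. On sequence 14 from 8604240 to 8604541 the H3K27me3 folds were 62.3 and 60.8 in seedling, 78.6 and 88.3 in flower bud beside 64.0 and 36.0 in silique, and the seedling H3K4me3 folds 7 and 7.62. The other 3 lay on sequence 19 from 13202702 to 13203155, on sequence 9 from 7176112 to 7176655 and on sequence 9 from 15066543 to 15067165, with seedling H3K4me3 folds between 5.45 and 11.1. The last of these sat in an H3K27me3 region of 8756 bp. None of these 5 had an H3K4me3 peak in silique, and all had H3K27me3 peaks in all 6 libraries. The lack of silique H3K4me3 was no trend over the members. Both silique libraries had H3K4me3 at 19.9% of members with a lower flower bud H3K27me3 fold up to 7.27. The share was 24.8% from there to 14.1 and 22.1% above.

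Members with no seedling H3K27me3 peak that ranked high for both seedling H3K4me3 and flower bud H3K27me3 were picked for these calls, and their silique calls are what the choice did not use. On sequence 4 from 21122217 to 21123541, H3K4me3 folds were 22.7 and 26.2 in seedling with no peak in flower bud or silique, and the region sat in 6154 bp of H3K27me3 with folds of 48.6 and 53.4 in flower bud beside 46.5 and 25.8 in silique. On sequence 5 from 1578378 to 1579660 the H3K4me3 folds were 22.1 and 28.2 in seedling and 8.51 and 6.21 in silique, under 7947 bp of H3K27me3 with folds of 40.8 and 49.6 in flower bud beside 35.7 and 19.7 in silique. On sequence 12 from 2724949 to 2725659 they were 17.7 and 20.1 in seedling and absent from silique, with H3K27me3 folds of 29.9 and 36.1 in flower bud beside 26.5 and 14.0 in silique.

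On sequence 9 from 4801017 to 4802274 the H3K4me3 folds were 33.3 and 30.9 in seedling, and the H3K27me3 folds 29.0 and 30.1 in flower bud beside 20.4 and 15.4 in silique. The fifth lay on sequence 11 from 7112265 to 7113414, with H3K4me3 folds of 20 and 25 in seedling and H3K27me3 folds of 36.2 and 45 in flower bud, but 5.03 in silique replicate 1 and no peak in replicate 2. A second member lay in the same H3K27me3 region of 4519 bp, from 7114246 to 7114838, with seedling H3K4me3 folds of 22.6 and 21.2 and an H3K27me3 fold of 10.5 in seedling replicate 1. Over that neighbour, silique H3K27me3 folds were 42.9 and 24.0. The 2 members of 1 flower bud region thus had different silique H3K27me3 calls.

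H3K27me3 was also called in seedling at many members, beside the H3K4me3. Of the 1083 members, 371 (34.3%) had an H3K27me3 peak of each seedling library over the H3K4me3 region, 141 (13.0%) of 1 library, and 571 (52.7%, 95% Wilson interval 49.7 to 55.7%) of neither. Over all 3442 H3K4me3 regions under flower bud H3K27me3, 47.2% had peaks of both seedling libraries and 39.7% of neither, and over all 51928 merged regions the shares were 3.35% and 95.5%. Among the 1061 regions that had H3K4me3 in all 4 seedling and flower bud libraries and lay under flower bud H3K27me3, 421 (39.7%) had both and 489 (46.1%) neither. Of the 3756 seedling regions that flower bud lacked and that were not members, 16 (0.426%) had a seedling H3K27me3 peak of 1 or both libraries.

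By library, H3K27me3 peaks lay over 481 members (44.4%) in seedling replicate 1 and 402 (37.1%) in replicate 2, and over 870 (80.3%) in silique replicate 1 and 488 (45.1%) in replicate 2. Both silique values were above both seedling values, by a narrow margin for silique replicate 2, which had the fewest fragments of all. Over all 22485 flower bud H3K27me3 regions the shares were 71.0% and 63.4% in the seedling libraries and 83.8% and 48.4% in those of silique, so silique replicate 2 was the lowest there. It was also the lowest over the 1061 regions with H3K4me3 in both tissues, where the seedling shares were 50.4% and 43.2% and the silique shares 71.0% and 41.4%. The mean was 40.8 ± 5.16% in seedling and 62.7 ± 24.9% in silique (SD, n = 2 libraries each), a difference of -21.9 points with a two-sided exact permutation p of 0.333, the smallest that the 6 arrangements allow. The size depended on which silique library was kept: the difference was -4.21 points without replicate 1, the deeper one, and -39.6 points without replicate 2.

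**Figure D3:**
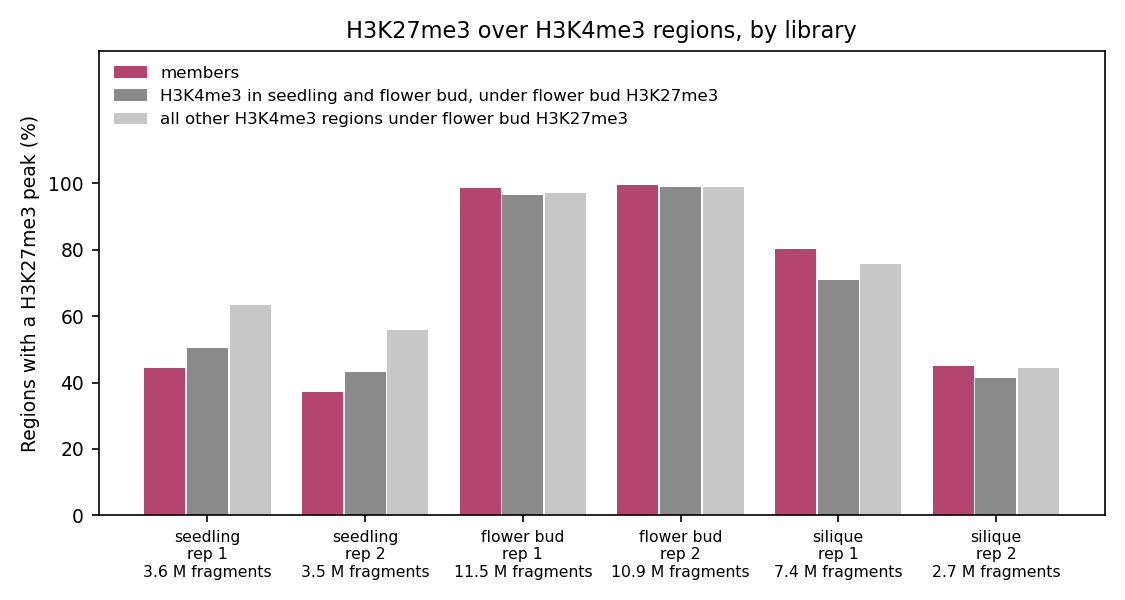
Percent of regions with an H3K27me3 peak over them (y axis) in each library (x axis, with its fragments), for members, for regions with H3K4me3 in seedling and flower bud under flower bud H3K27me3, and for all other H3K4me3 regions under flower bud H3K27me3. Members are the lowest of the 3 in both seedling libraries, at 44.4% and 37.1%, and the highest in both silique libraries, at 80.3% and 45.1%.

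The share without seedling H3K27me3 was lower where the flower bud mark was stronger. Bands of about equal size were cut at lower flower bud folds of 7.27 and 14.1 over all H3K4me3 regions under flower bud H3K27me3. In all, 265 of 337 members in the low band had no seedling H3K27me3 peak (78.6%), 203 of 359 in the middle band (56.5%) and 83 of 367 in the high band (22.6%). Regions with H3K4me3 in both tissues had lower shares in each band, at 68.9%, 40.1% and 15.9%. The seedling H3K27me3 libraries held fewer fragments than those of flower bud, as given above, and the part of depth in the low band was not tested. With every list of a mark cut to the length of its shortest, 60.6% of the members then found had no seedling H3K27me3 peak.

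The share of members with no seedling H3K27me3 peak was higher at stronger seedling H3K4me3. No seedling H3K27me3 peak was called over 42 of 132 members with a lower seedling H3K4me3 fold under 5 (31.8%), over 124 of 209 with a fold of 10 to 15 (59.3%), over 72 of 100 with a fold of 15 to 20 (72.0%) and over 11 of 13 with a fold of 30 or more (84.6%). The silique H3K27me3 calls did not follow that order: both silique libraries had a peak over 56.1% of the members with a fold under 5, 43.1% of those with 10 to 15, 41.0% of those with 15 to 20 and 61.5% of those with 30 or more. Neither share was measured by these bands in other H3K4me3 regions under flower bud H3K27me3. Whether these patterns are particular to the members is therefore not known.

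**Figure D4:**
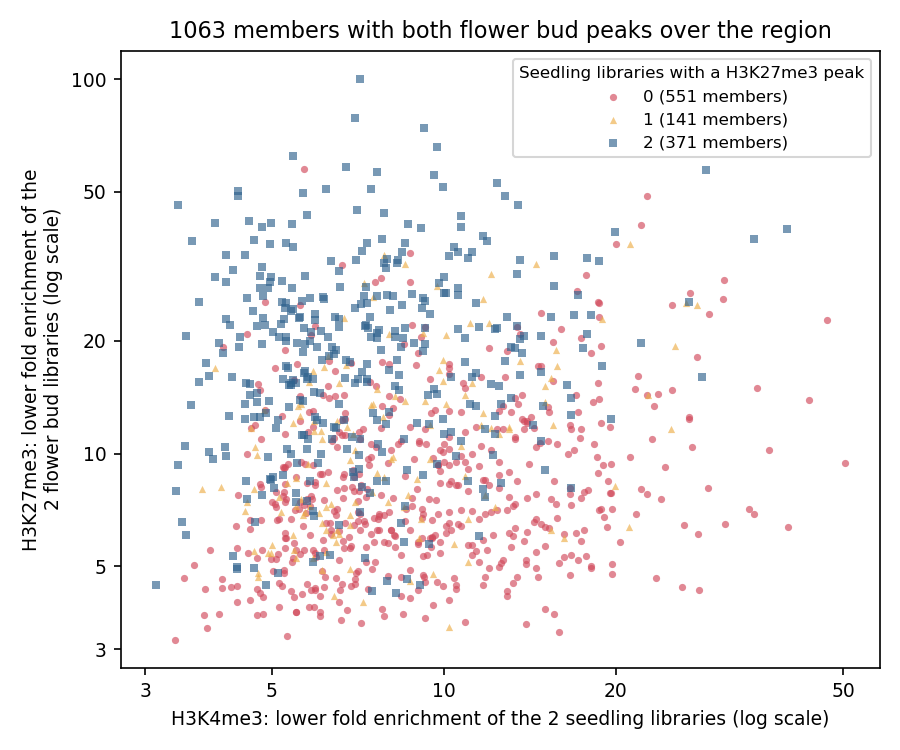
Lower seedling H3K4me3 fold (x axis, log scale) against lower flower bud H3K27me3 fold (y axis, log scale) for the 1063 members with peaks of both flower bud H3K27me3 libraries over the region, marked by the number of seedling libraries with an H3K27me3 peak. The 2 folds show almost no relation (Spearman rho 0.0583), and members with H3K27me3 in both seedling libraries gather at high flower bud H3K27me3 and low seedling H3K4me3.

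Summit positions describe the 371 members where both seedling libraries had an H3K27me3 peak over the H3K4me3 region. They were picked by that overlap, which keeps the distances short, and no other set was measured. Over them the H3K27me3 summit lay a median of 116 bp from the H3K4me3 summit of seedling replicate 1 in each seedling library, against 116 and 111 bp for the flower bud libraries, then 123 and 130.0 bp for the silique ones (361 and 292 members with a peak). The upper quartile of this distance was 344 and 370 bp in the 2 seedling libraries. The H3K27me3 peak contained that H3K4me3 summit in 90.0% and 83.3% of them for seedling, 98.9% and 99.7% for flower bud, then 96.7% and 91.1% for silique. The peaks themselves were of different width, with medians of 812 and 656 bp for seedling, 1742 and 2033 bp for flower bud, then 1372 and 887 bp for silique, and that width bears on the share that contains the summit.

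In silique most members had no H3K4me3 peak, but not the strongest ones: of the 66 whose seedling pileup, scaled by fragments, reached the median of both flower bud lists, 33 (50%) had it in both silique libraries and 25 in neither. Over all members, both silique libraries had an H3K4me3 peak in 238 members (22.0%), 1 had it in 79 (7.29%) and neither in 766 (70.7%). Over all 4839 seedling regions that flower bud lacked, 23.3% had it in both silique libraries and 67.0% in neither, so these shares were near the background. Over all merged H3K4me3 regions, 80.9% had it in both. By library, silique replicate 1 had an H3K4me3 peak at 262 members (24.2%) and replicate 2 at 293 (27.1%), against 26.7% and 31.0% of the other seedling regions that flower bud lacked. The share with H3K4me3 in both silique libraries rose with the seedling fold: it was 10.6% of members with a fold under 5, 27.8% at 10 to 15, 47.5% at 20 to 30 and 76.9%, or 10 of 13, at 30 or more. Other seedling regions that flower bud lacked showed 16.3%, 34.1%, 56.7% and 50%, the last being 5 of 10.

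Silique H3K27me3 was called by both libraries over 486 members (44.9%), by 1 over 386 (35.6%) and by neither over 211 (19.5%). Without silique replicate 2, the shallowest library, the first share was 80.3%. Over all H3K4me3 regions under flower bud H3K27me3, 44.5% had it in both and 22.8% in neither, again close to the members, and over all 51928 merged regions 3.03% and 94.3% did. Members with H3K27me3 in both seedling libraries mostly had it in both silique libraries, at 292 of 371 (78.7%). Members with no seedling H3K27me3 peak had it in both silique libraries at 131 of 571 (22.9%) and in neither at 190 (33.3%).

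Within silique, the share of members with H3K27me3 was lower where H3K4me3 was called. Of the 238 members with H3K4me3 in both silique libraries, 76 (31.9%, 95% Wilson interval 26.3 to 38.1%) had H3K27me3 in both and 67 (28.2%) in neither. Of the 766 with no silique H3K4me3, 383 (50%, 46.5 to 53.5%) had H3K27me3 in both and 122 (15.9%) in neither. Every pairing of silique libraries gave the same direction. H3K27me3 replicate 1 had a peak over 71.8% of members with and 83.1% of members without a peak in H3K4me3 replicate 1, and over 71.3% and 83.7% with H3K4me3 replicate 2. H3K27me3 replicate 2 had a peak over 32.4% and 49.1% with H3K4me3 replicate 1, and over 32.8% and 49.6% with replicate 2.

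The same order held in each band of flower bud H3K27me3. Both silique H3K27me3 libraries had a peak over 1 of 67 members with silique H3K4me3 and 22 of 245 without it in the low band (1.49% and 8.98%). It was 13 of 89 and 124 of 246 in the middle band (14.6% and 50.4%), and 62 of 81 and 236 of 261 in the high band (76.5% and 90.4%). It was not particular to the members: at the 1061 regions under flower bud H3K27me3 with H3K4me3 in seedling and flower bud, 36.6% of the 883 with silique H3K4me3 in both libraries and 65.4% of the 133 with none had H3K27me3 in both. The silique libraries were not used to choose the members, but with 2 libraries per mark no test over libraries can reach 0.05.

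**Figure D5:**
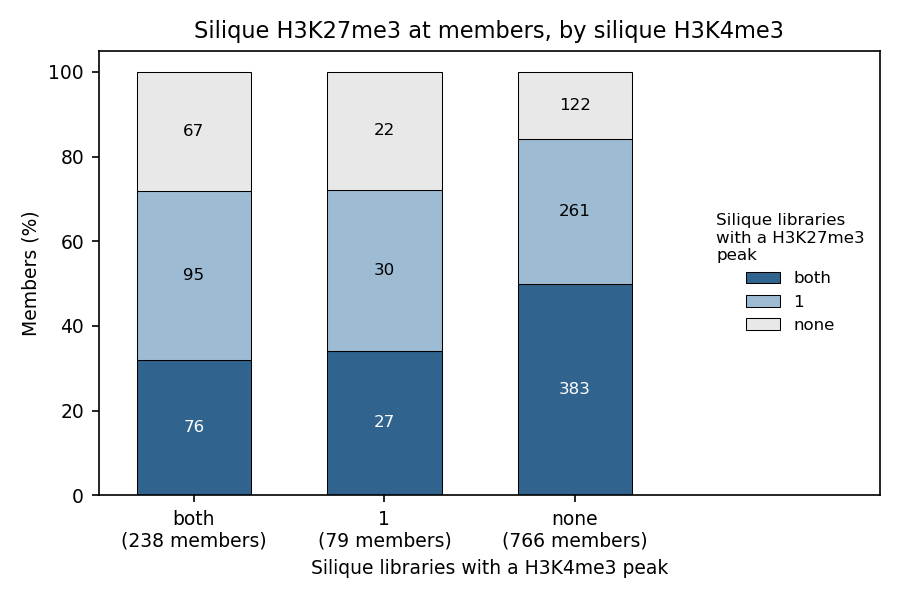
Members (y axis, percent) by the number of silique H3K27me3 libraries with a peak, for members with H3K4me3 in both, 1 or none of the silique libraries (x axis). H3K27me3 in both libraries makes up 31.9% of members with silique H3K4me3 in both libraries and 50% of members with none, and the numbers in the bars are counts of members.

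The calls of both marks over all tissues split the members into several states. H3K27me3 was called over the region in all 6 libraries at 292 members (27%), of which 216 had no H3K4me3 in silique and 56 had it in both silique libraries. Over all 3442 H3K4me3 regions under flower bud H3K27me3, 33.3% had H3K27me3 in all 6 libraries. The 216 were 19.9% of members, against 15.8% of the 3442, and the 56 were 5.17%, against 14.6%. At 131 members (12.1%, against 7.47% of the 3442) H3K27me3 was absent from seedling and present in both silique libraries. Of these, 115 had no silique H3K4me3, which was 10.6% of members, against 4.85% of the 3442. At 190 members (17.5%, against 16.9% of the 3442) H3K27me3 was called in flower bud with no peak in seedling or silique. Of these, 58 had H3K4me3 in both silique libraries. These 58 were 5.36% of members, against 10.3% of the 3442. Members were chosen without flower bud H3K4me3, while 1432 of the other 2359 had it in both libraries, and these differences were not tested.

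Of the members whose H3K27me3 was not called in either silique library, the strongest in seedling H3K4me3 lay on sequence 5 from 18169206 to 18170185. Its H3K4me3 folds were 37.0 and 42.8 in seedling and 6.61 and 10.9 in silique, and its H3K27me3 folds 10.2 and 10.8 in flower bud alone. On sequence 18 from 32574868 to 32576182 the H3K4me3 folds were 36.3 and 34.9 in seedling and 19.2 and 18.2 in silique, with H3K27me3 folds of 8.09 and 6.89 in flower bud. On sequence 4 from 6106488 to 6107245 they were 31.0 and 33.5 in seedling and 5.77 and 6.06 in silique, with 6.48 and 6.65 for flower bud H3K27me3. The flower bud H3K27me3 of the members on sequences 18 and 4 was below the median of its lists, 8.32 and 8.91, in both libraries.

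The 3 members ranked highest by the lower of their silique H3K4me3 folds had seedling peaks near or below the median of the seedling lists. Other members had a higher fold in 1 silique library than the third of these, among them the one on sequence 10 described above. On sequence 9 from 18582055 to 18583413 the H3K4me3 folds were 16.3 and 15 in seedling and 36.5 and 31.0 in silique, with H3K27me3 folds of 5.87 in seedling replicate 2, 16.5 and 15.1 in flower bud, and 6.24 in silique replicate 1. On sequence 19 from 3952411 to 3953824 they were 10.6 and 8.97 in seedling and 30.6 and 31.5 in silique, and on sequence 19 from 5506403 to 5507990 they were 7.25 and 7.40 in seedling and 24.5 and 21.4 in silique. The last had flower bud H3K27me3 folds of 28.5 and 29.2. Folds of different lists are the authors' values within each list and were not tested against each other.

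The longest overlaps of the marks reached about 2 kb. On sequence 7 from 28617824 to 28619890, 2045 bp of the H3K4me3 region lay under H3K27me3, with seedling H3K4me3 folds of 12.7 and 13.4, silique folds of 12.9 and 16.7, and flower bud H3K27me3 folds of 13.4 and 18.4. On sequence 3 from 13722232 to 13724257 the overlap was 2026 bp, and H3K27me3 was called in both seedling libraries at 8.90 and 6.09. On sequence 8 from 20857046 to 20859054 it was 2009 bp with no silique H3K4me3, and on sequence 16 from 48532407 to 48534391 it was 1968 bp with silique H3K4me3 folds of 10.5 and 12.3. No H3K27me3 region held more than 2 members, and 11 held 2. The widest of those, 5259 bp on sequence 3 from 17882296 to 17887554, held 1 member with no H3K27me3 peak in seedling or silique and 1 with H3K27me3 in all 6 libraries. The third, on sequence 15 from 55244830 to 55248935, held a pair with seedling H3K27me3 folds of 9.70 and 6.60 over one and 9.35 and 7.42 over the other.

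By the median, members lay farther from flower bud H3K4me3 than the other seedling regions that flower bud lacked. This distance was not measured for other H3K4me3 regions under flower bud H3K27me3. Whether it is particular to the members is therefore not known. The nearest H3K4me3 region of both flower bud libraries was a median of 7423 bp away from a member and 5006 bp from another seedling region that flower bud lacked (3755 regions, on the numbered sequences). Within 1 kb of such a region lay 2.95% of members and 8.58% of the others, within 2 kb 9.88% and 21.1%, and within 5 kb 34.0% and 50%. Most members had no near neighbour: 823 had no other member within 50 kb, and neighbouring members were a median of 390306 bp apart. The other 260 (24.0%) lay in groups of 2 or more. The spacing of other regions was not measured. There were 98 pairs, 17 groups of 3, 2 groups of 4 and 1 group of 5. The group of 5 spanned 76171 bp on sequence 2 from 4088226 to 4164396, and 4 of its members had seedling H3K27me3 and none had H3K4me3 in both silique libraries. A group of 4 lay on the same sequence from 4659378 to 4697486 and held the member with the strongest flower bud H3K27me3.

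Members lay on all 19 numbered sequences and on no other. Between 34 and 92 were on each, and they made up 15.1% (sequence 12) to 30.6% (sequence 10) of the seedling regions that flower bud lacked. Sequences 1 to 10 were taken as chromosomes A1 to A10 and 11 to 19 as C1 to C9 from their order and extent, which tracks that of the Da-Ae assembly (Pearson r = 0.994 over 19 sequences). The A sequences held 537 members, 23.9% of their 2246 seedling regions that flower bud lacked, and the C sequences 546, 21.1% of 2592. Of all merged H3K4me3 regions, members were 2.23% on A and 1.97% on C. Per length they were denser on A, at 1.73 per Mb against 0.997 per Mb on C, and densest on sequence 2, at 2.27 per Mb. The density of all merged H3K4me3 regions per Mb was not computed. As a share of those regions, members differed much less between A and C, so the density per length is not a trait of the members alone.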

How the data were processed

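The labels' protocols give cross-linking with 1% formaldehyde, about 1 g of tissue per library and sonication to 200 to 600 bp. The submitters' processing notes name BWA, GATK, SAMtools and MACS2. Per the file headers, the authors called narrow peaks of each library separately with MACS2 2.2.7.1 against 1 merged control of 12042843 fragments, at a q cutoff of 1e-05, keeping 1 fragment per duplicate position. The deposited pileup is a coverage signal taken at the peak's summit. P- and q-values are deposited as −log10, and fold enrichment is the authors' ratio to the local control.

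Peaks were merged within a mark, and a region counted as called in a library with 1 or more peaks in it. Peaks of the other mark were counted over the H3K4me3 region itself, except in the rule, which uses merged H3K27me3 regions. Named regions are the 5 members with the highest lower seedling H3K4me3 fold, the 5 with the highest lower flower bud H3K27me3 fold, the 4 longest overlaps, the 5 without seedling H3K27me3 that ranked highest in both folds, the 3 with the highest lower silique H3K4me3 fold, the 3 without silique H3K27me3 with the highest seedling fold, and the 3 widest H3K27me3 regions among those with the most members. Groups of neighbouring members, bands of fold and summit distances were added with the data in view. Members and measures were chosen with earlier results of these data known. Counting was tested on simulated lists. Calculations used Python 3.11.15, numpy 2.4.6, pandas 2.3.3 and scipy 1.17.1.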

Additional observations from a re-analysis of the deposited data

Results flagged for a closer look

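H3K27me3 at the members went opposite ways in seedling and silique when set against the other 2359 H3K4me3 regions under flower bud H3K27me3. The share of members with a peak minus that of the other regions was -19.0 points in seedling replicate 1 (44.4% and 63.5%) and -18.8 in replicate 2 (37.1% and 55.9%). It was 4.71 points in silique replicate 1 (80.3% and 75.6%) and 0.634 in replicate 2 (45.1% and 44.4%). Every seedling library thus lay on one side of 0 and every silique library on the other, which is what singled the result out, and the difference between the tissues was not tested. The value for silique replicate 2 is small: 44.4% lies inside the members' 95% Wilson interval of 42.1 to 48.0%. That interval covers only counting error of the members, and regions of 1 library are not independent of each other. It is therefore no test of the difference. Within bands of flower bud fold its sign turned in the low band (8.01% of members and 11.3% of the others) and in the middle band (39.8% and 44.4%). That of silique replicate 1 turned in the high band (96.2% and 96.9%), so the silique side depends on the band. Only 1182 of the other 2359 regions (50.1%) had H3K4me3 in both seedling libraries, as every member did. In 442 it was called in 1 seedling library and in 735 in neither. The other regions include 300 with H3K4me3 in both flower bud and neither seedling library, of which 92.3% and 83.7% had seedling H3K27me3 peaks in the 2 libraries. Set against the 1061 regions with H3K4me3 in both tissues instead, the signs were the same without bands. The seedling gaps were much smaller there, and the silique gaps larger. There 50.4% and 43.2% had a peak in seedling and 71.0% and 41.4% in silique. Within bands the sign of silique replicate 2 turned here too, in the low band (8.01% of members and 11.3%) and the middle band (39.8% and 48.0%). Silique replicate 1 was level in the high band (96.2% in each set). In the remaining bands the silique shares of members were higher.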

How the results depend on the processing

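The count of members depends on list length and peak strength. With lists cut to equal length (43010 for H3K4me3 and 13579 for H3K27me3) it was 436 in place of 1083. The pileup requirement, a seedling pileup that reaches the median of both flower bud lists after scaling by fragments, left 66. Under these 2 settings, members without seedling H3K27me3 were 60.6% and 77.3% in place of 52.7%, members with silique H3K4me3 26.1% and 50% in place of 22.0%, and the share of seedling regions that flower bud lacked under flower bud H3K27me3 15.8% and 44.0% in place of 22.4%. Members with silique H3K27me3 were 62.4% with equal lists. With −log10 q of 10 or more, members without seedling H3K27me3 were 61.5%, members with silique H3K27me3 39.1% in place of 44.9%, and the share under flower bud H3K27me3 20.5%. The cause was not tested. Leaving out 1 library in turn, with its tissue judged on the other, gave 1081 to 1337 members, 50.3 to 62.9% without seedling H3K27me3, 19.8 to 27.1% with silique H3K4me3, 42.3 to 80.3% with silique H3K27me3 (the highest without silique H3K27me3 replicate 2) and 20.4 to 23.8% under flower bud H3K27me3. The difference between seedling and silique libraries in H3K27me3 stayed negative under all 18 alternatives, from -42.4 to -4.21 points, with exact permutation p of 0.333 or 0.667. Most alternatives left the same seedling and silique H3K27me3 libraries in the comparison, so their common sign is not independent support. The value of -4.21 was that without silique H3K27me3 replicate 1. Merging within 200 bp, at least 50% overlap and single flower bud peaks moved no share beyond its counting interval. The count of members and the difference between seedling and silique libraries have no such interval. Under these settings the count was 1081, 1042 and 1064, and the difference -21.9, -22.4 and -22.0 points. No paired analysis was possible because the labels number no replicates across tissues.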
